A study of Mus musculus with 7 samples.

Results

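The genes described here are 37 genes of the peroxisome, chosen by name from a table of 55487 genes measured in brown adipose tissue of 7 NOD/ShiLtJ mice, an inbred strain that develops autoimmune diabetes. All 37 were found by their symbols in the table, each in 1 row. They were read in 2 groups, 12 peroxins and 25 enzymes, transporters and other proteins of the organelle, here called the enzymes. Of the 37, 36 passed the filter on low counts and were tested, and Acox2, an acyl-CoA oxidase for branched side chains that was measured at no more than 6 counts in any library, was not.

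Both groups were NOD/ShiLtJ mice, and no transgene or other allele is named in the labels. The 4 mice labelled CB-100 received the fraction above 100 kDa of buffer conditioned by brown adipocytes, under the skin, at 1.5 mg/kg for 7 days. The 3 sham mice are labelled with KRBH buffer alone, and their own injection schedule is not given in the sources used here. Blood glucose at injection was 190 to 230 mg/dL, and the series' design text places RNA isolation 2 to 8 weeks after injection, with no time or age for each mouse. The conditioned buffer is labelled imBAT, which the labels do not spell out. Titles of the CB-100 samples carry the code nd and those of the sham samples the code d, so whatever these codes stand for cannot be told apart from the injection. Expression of X- and Y-linked genes showed 1 male in each group, replicate 3 in both.

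Peroxisomes are small organelles with a single membrane that shorten very long, branched and dicarboxylic fatty acids, start the synthesis of ether lipids and break down hydrogen peroxide. Peroxins build the organelle: some carry proteins in from the cytosol, others place membrane proteins or help the organelle divide. Its beta-oxidation does not run to the end, and the shortened acyl chains leave for the mitochondria, where brown adipocytes burn fatty acids to make heat.

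Libraries held 10815101 to 28528471 expected counts. Levels below are CPM, counts relative to the library total, after TMM scaling, and differences are CB-100 minus sham on the log2 scale. The share of counts from mitochondrially encoded genes was 22.3% to 36.3% in CB-100 and 14.3% to 22.8% in sham, and that from the small RNAs 7SK and 7SL was 9.54% to 14.4% and 5.89% to 8.36%. The 7SK and 7SL share was thus higher in every CB-100 library than in any sham library. With mitochondrially encoded genes left out, the median difference was -0.525 for the enzymes and -0.128 for the peroxins. With nuclear protein-coding genes alone, which leaves out 7SK and 7SL too, these were -0.521 and -0.125. The main fit gave -0.524 and -0.128. Beyond these refits, the part of both shares in the results below was not tested. The 8 brown adipocyte markers were all tested and none was called (1 at an unadjusted p under 0.05 in edgeR). Ucp1, the uncoupling protein that defines brown fat, had 450 to 2237 CPM in CB-100 and 46.1 to 875 CPM in sham. Its groups overlapped (difference 1.99, adjusted p = 0.262). Dio2, another of these markers, had 43.6 to 377 CPM in CB-100 and 1.03 to 27.8 CPM in sham. Every CB-100 library was above every sham library for Dio2 (difference 3.10, adjusted p = 0.137). Of the 8 differences, 5 were above 0 and 3 below, and their part in the results was not tested. Summed markers of adipocytes in general (5 genes) gave 4098 to 5772 CPM in CB-100 and 5058 to 8043 CPM in sham. Markers of other cells gave 242 to 1841 CPM in CB-100 and 694 to 1546 CPM in sham for skeletal muscle (10 genes), 70.3 to 171 and 80.8 to 119 for macrophages (5 genes), 521 to 1228 and 449 to 735 for endothelium (3 genes), 22.8 to 28.5 and 11.0 to 17.6 for Schwann cells (3 genes), and 2.15 to 4.29 and 2.12 to 5.36 for B and T cells (6 genes). The Schwann cell sum was higher in every CB-100 library than in any sham library, and its part in the results was not tested. Hepatocytes, a cell type rich in peroxisomes, gave 0.639 to 2.72 and 0.517 to 1.31 CPM over 4 markers, of which Alb and Ttr had no count in any library. In tissue RNA, fewer cells of a type and less RNA per cell cannot be told apart.

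Across the 36 tested genes, 1 passed an adjusted p of 0.05 in edgeR's quasi-likelihood test, Scp2, which fell. Over all 16823 genes tested, 622 were called (3.7%), of which 383 were lower in CB-100 (2.28%) and 239 higher (1.42%). Leaving out 1 library gave 97 calls without CB-100 replicate 1, 24 without replicate 2 and 187 without replicate 3, and 14, 319 and 8 without sham replicates 1, 2 and 3. The 1 call among 36 genes is a share near the background. Of the 24 enzymes, 20 had a difference below 0, beside 7950 of all 16823 genes, and their median was -0.52, beside 0.03 over all genes. At an unadjusted p under 0.05 in edgeR, 13 enzymes were lower and 1, Acot8, was higher, beside 2046 lower and 1976 higher of all genes. The 12 peroxins had 7 differences below 0 and 5 above, a median of -0.13, and no call with edgeR, DESeq2 or limma's voom. At an unadjusted p under 0.05 these gave 1, 1 and 2 peroxins. That median ranged from -0.29 without CB-100 replicate 1 to -0.02 without CB-100 replicate 2, and was -0.04 without CB-100 replicate 4 and -0.20 without sham replicate 1. Whether the enzymes and the peroxins differed from each other was not tested.

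The sequences before 2 of the genes are shown, that of Scp2 because it is the called gene and that of Acot4 because it holds the match closest to a DR1 element outside the barely measured Acox2. A DR1 element, to which PPARalpha and its partner RXR bind, is 2 copies of AGGTCA spaced by 1 base, written AGGTCANAGGTCA. Both are 5′ to 3′ along the gene's own strand, from RefSeq promoters on GRCm38.p6, and stop 1 base before the start of transcription. Capitals mark the hexamer AGGTCA, a single copy, which reads TGACCT where it lies on the other strand.
Scp2, minus strand, chr4:108118548-108118797: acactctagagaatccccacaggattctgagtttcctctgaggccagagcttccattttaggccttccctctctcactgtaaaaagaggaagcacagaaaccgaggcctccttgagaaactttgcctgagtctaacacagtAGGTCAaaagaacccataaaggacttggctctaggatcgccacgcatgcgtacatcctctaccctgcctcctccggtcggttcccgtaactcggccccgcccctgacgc
Acot4, plus strand, chr12:84038129-84038378: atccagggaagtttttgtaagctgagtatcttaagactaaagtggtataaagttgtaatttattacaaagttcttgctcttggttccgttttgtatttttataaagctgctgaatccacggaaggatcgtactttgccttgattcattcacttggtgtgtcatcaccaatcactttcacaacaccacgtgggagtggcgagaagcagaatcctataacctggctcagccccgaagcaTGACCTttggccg

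The hexamer began 109 bases before the Scp2 start and 13 bases before that of Acot4. The Scp2 start listed by RefSeq lies 26451 bases inside the gene as annotated. RefSeq gave 38 windows of 300 bases, 250 before and 50 after the start, for 31 of the 37 genes. Searched on both strands, AGGTCA was in 5 of the 38 windows (13.2%), belonging to Acot3 with 2 windows, Acot4, Phyh and Scp2, beside 16.3% of all 32851 RefSeq windows. The whole DR1 motif occurred in none of the 38 and in 13 of all windows (0.04%). With up to 2 mismatches it was in 2 of the 38 (5.26%), those of Acot4 and Acox2, and in 3.86% of all. In Acot4 the capitals are part of that match, so the searches overlap. Such matches describe letters in a window and say nothing of binding.

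The beta-oxidation enzymes held the 1 called gene. Of their 8 tested members, 3 had every CB-100 library below every sham library, beside 12.2% of all genes tested. Scp2 (chromosome 4, 108043839 to 108144998, minus strand, GRCm38) encodes both a thiolase that ends the shortening of branched chains and sterol carrier protein 2, a lipid transfer protein, and counts per gene do not separate these products. Its level was 237, 173, 197 and 173 CPM in CB-100 replicates 1 to 4 and 381, 385 and 424 CPM in sham replicates 1 to 3. Every sham library was well above every CB-100 library, with little spread inside either group. The means were 195 ± 30.2 CPM (SD, n = 4) and 396 ± 23.9 CPM (SD, n = 3), a log2 difference of -1.02 (SE 0.17, 95% confidence interval -1.42 to -0.63), or 2.03-fold lower in CB-100 (adjusted p = 0.0284). The call was lost without CB-100 replicate 2 (adjusted p = 0.0683), CB-100 replicate 3 (0.0587), sham replicate 1 (0.0824) or sham replicate 3 (0.128). Without CB-100 replicate 1 it was joined by Decr2 (adjusted p = 0.0483). In those and all other alternatives run its difference stayed between -1.13 and -0.97.

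Hsd17b4 carries the hydratase and dehydrogenase steps of the same branched-chain route. It had 164, 109, 163 and 139 CPM in CB-100 and 184, 316 and 294 CPM in sham. All 4 CB-100 values were below the sham values, with sham replicate 1 nearest to them, and the difference of -0.88 (SE 0.23, adjusted p = 0.0653) was not called. Decr2, the peroxisomal 2,4-dienoyl-CoA reductase, acts on chains with double bonds. Its level was 51.7, 33.2, 29.6 and 26.6 CPM in CB-100 and 59.6, 59.3 and 70.4 CPM in sham, again without overlap, and its difference was -0.84 (SE 0.22, adjusted p = 0.0666). Ehhadh, the bifunctional enzyme of straight-chain substrates, lay between 45.4 and 53.3 CPM in CB-100 and spread from 48.1 to 136 CPM in sham, where replicate 3 was as low as the CB-100 mice (difference -0.90, SE 0.29, adjusted p = 0.108). Pecr, a trans-2-enoyl-CoA reductase, had a difference of -0.70, the oxidase Acox3 of -0.43 and the thiolase Acaa1a of -0.38, and the groups overlapped for each. The thiolase Acaa1b stood at 0.13 (adjusted p = 0.875), but 35.6% of its 50-base words also occur in Acaa1a and its counts are uncertain.

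**Figure D1:**
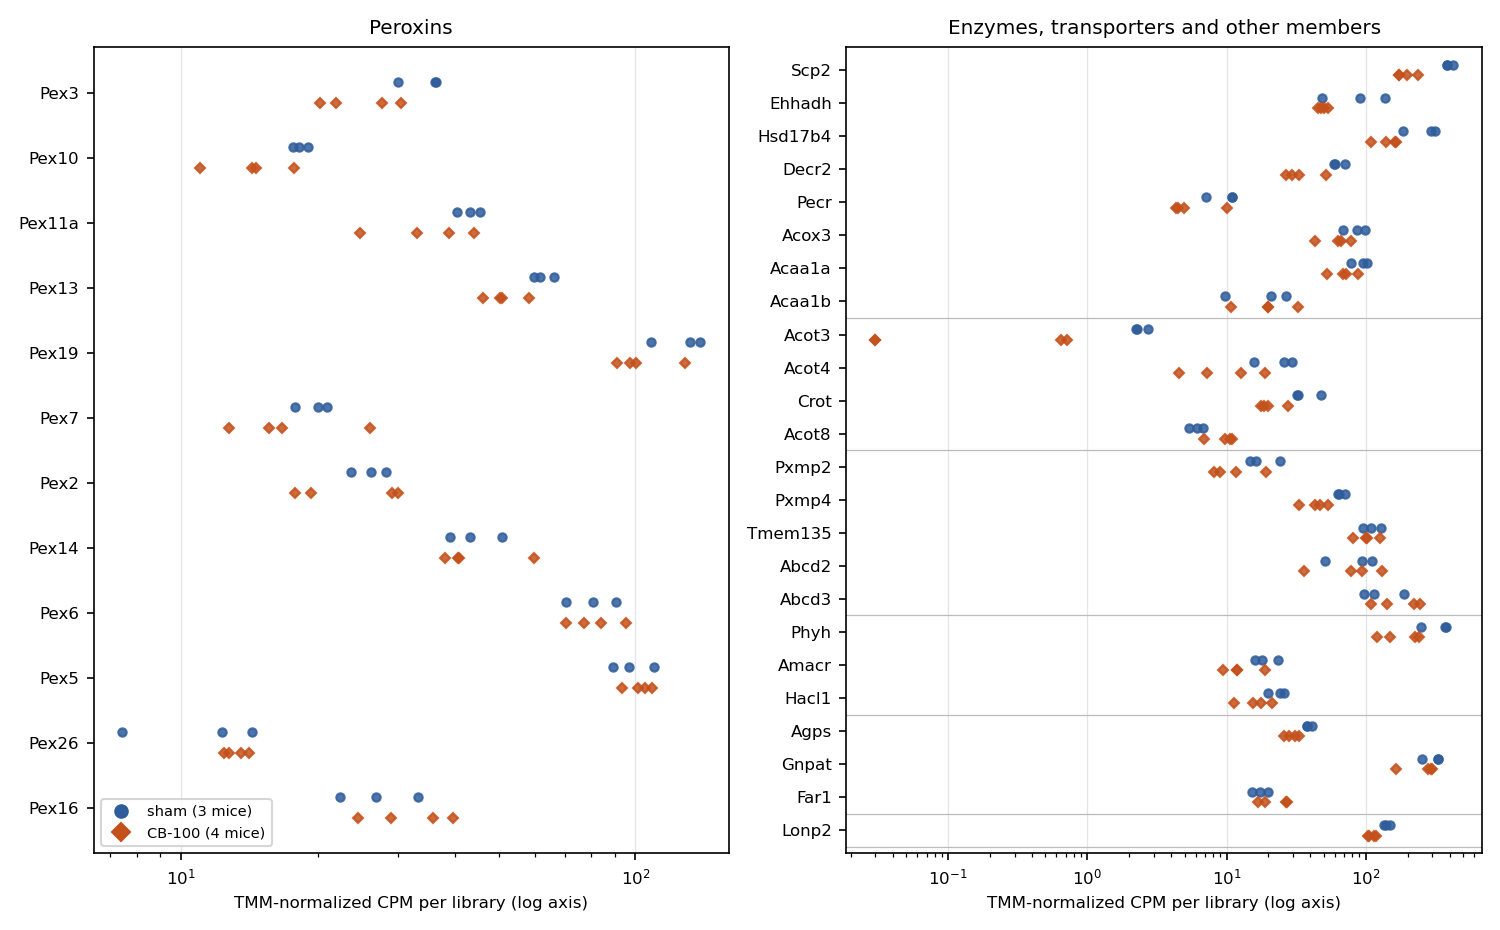
TMM-normalized CPM of the 36 tested genes in each library on log axes, peroxins on the left and the enzymes on the right, with sham mice as blue circles and CB-100 mice as orange diamonds; lines on the right separate the roles. For Scp2 the 4 diamonds (173 to 237 CPM) lie left of the 3 circles (381 to 424 CPM), and the 2 CB-100 values of 0 CPM for Acot3 are drawn at the left edge of the points because a log axis has no 0.

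Of the 4 genes whose products release shortened chains from the organelle, none was called by edgeR. All 4 had an unadjusted p under 0.05 in edgeR, 3 lower and 1 higher, beside 4022 of all 16823 genes. DESeq2 called Crot and Acot3, beside 1968 of all genes. Crot, the carnitine octanoyltransferase that hands medium chains to carnitine, had 19.8, 18.6, 27.8 and 17.8 CPM in CB-100 and 32.0, 32.6 and 48.0 CPM in sham. The groups did not overlap, and its difference of -0.84 (SE 0.21, adjusted p = 0.0578) was nearest to the threshold of all members that missed it. Acot3, a thioesterase of long-chain acyl-CoA, was the scarcest tested member, with 0.715, 0, 0 and 0.651 CPM in CB-100 and 2.24, 2.27 and 2.73 CPM in sham. In counts these were 10, 0, 0 and 13.68 against 43.33, 33.1 and 58.37, so the sham libraries carried it past the filter and favoured a lower value in CB-100. Its fitted difference of -2.68 (SE 0.80, adjusted p = 0.0922) rests on those few counts; without Acot3 the median of the enzymes was -0.50.

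Acot8, a thioesterase of broad chain length, was the 1 member whose CB-100 libraries all lay above sham. It had 10.6, 9.68, 6.83 and 10.9 CPM in CB-100 and 6.09, 6.80 and 5.41 CPM in sham, with CB-100 replicate 3 just above the highest sham value. The difference was 0.64 (SE 0.21, adjusted p = 0.114). Acot4, the succinyl-CoA and dicarboxylyl-CoA thioesterase beside Acot3 on chromosome 12, ranged from 4.53 to 18.9 CPM in CB-100 and from 15.8 to 29.4 CPM in sham (difference -1.12, SE 0.44, adjusted p = 0.172). Crot and Acot8 thus stood on opposite sides of sham, and neither was called.

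Among the 5 membrane proteins the differences had a median of -0.12 and none was called (1, Pxmp4, at an unadjusted p under 0.05 in edgeR, and called by DESeq2). Pxmp4, a membrane protein of unsettled function, was measured at 53.9, 47.1, 42.9 and 32.9 CPM in CB-100 and 63.3, 63.8 and 71.5 CPM in sham. Its groups did not overlap (difference -0.58, SE 0.17, adjusted p = 0.0856). Pxmp2, a channel for small solutes, had 19.2, 8.95, 11.7 and 8.14 CPM in CB-100 and 16.2, 14.7 and 24.1 CPM in sham. CB-100 replicate 1 was inside the sham range and the other 3 below it (difference -0.61, adjusted p = 0.270). Tmem135, tied to organelle dynamics, stood at -0.12.

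The importers of fatty acyl-CoA had fitted differences near or above 0 and overlapping groups. Abcd2, which takes very long and polyunsaturated chains, ranged from 35.9 to 131 CPM in CB-100 and from 51.0 to 111 CPM in sham, with a fitted difference of -0.00 (95% confidence interval -0.96 to 0.95, adjusted p = 0.997). Abcd3, which takes branched and dicarboxylic chains, had 243, 109, 142 and 224 CPM in CB-100 and 97.1, 189 and 114 CPM in sham. It was highest in CB-100 replicates 1 and 4, and the interval of its difference, -0.33 to 1.18, includes both a lower and a higher level (adjusted p = 0.463). Those libraries were also the highest for the summed brown adipocyte markers, which ranged from 1195 to 3454 CPM in CB-100 and from 1079 to 2113 CPM in sham, and sham replicate 2 led its group in both. That this gene and those markers were highest in the same mice was seen only after the values were known, and its part in the result was not tested.

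Alpha-oxidation removes 1 carbon from branched acids such as phytanic acid before beta-oxidation can act. Phyh, the phytanoyl-CoA hydroxylase that opens it, was the most abundant enzyme per kilobase of exon, at 176 CPM per kb in the mean of sham and 96.9 in CB-100. In CPM it had 239, 148, 226 and 120 in CB-100 and 250, 376 and 373 in sham. All CB-100 values were below sham, although replicates 1 and 3 came close to sham replicate 1 (difference -0.86, SE 0.28, adjusted p = 0.103). Hacl1, the lyase of the next step, had 21.3, 11.3, 15.5 and 17.6 CPM in CB-100 and 19.8, 24.3 and 25.9 CPM in sham, which overlapped (difference -0.50, SE 0.21, adjusted p = 0.192). Amacr, the racemase that readies branched chains for the oxidases, stood at -0.55 (SE 0.24, adjusted p = 0.209).

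Ether lipid synthesis starts with Gnpat and Agps inside the organelle and with Far1, which supplies the fatty alcohol, on its outside. Agps had 26.0, 33.1, 28.1 and 31.2 CPM in CB-100 and 37.8, 40.9 and 37.7 CPM in sham. The groups did not overlap and the spread inside each was small (difference -0.39, SE 0.13, adjusted p = 0.114). Far1 had 17.0, 26.7, 18.9 and 27.3 CPM in CB-100 and 17.5, 19.8 and 15.2 CPM in sham, with CB-100 replicates 2 and 4 above all sham mice (difference 0.36, SE 0.20, adjusted p = 0.312). Gnpat stood at -0.23 (adjusted p = 0.580). Lonp2, the protease that clears and processes matrix proteins, had 119, 114, 106 and 103 CPM in CB-100 and 135, 150 and 140 CPM in sham. It was lower in each CB-100 library than in any sham library by a small margin (difference -0.36, SE 0.13, adjusted p = 0.147).

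**Figure D2:**
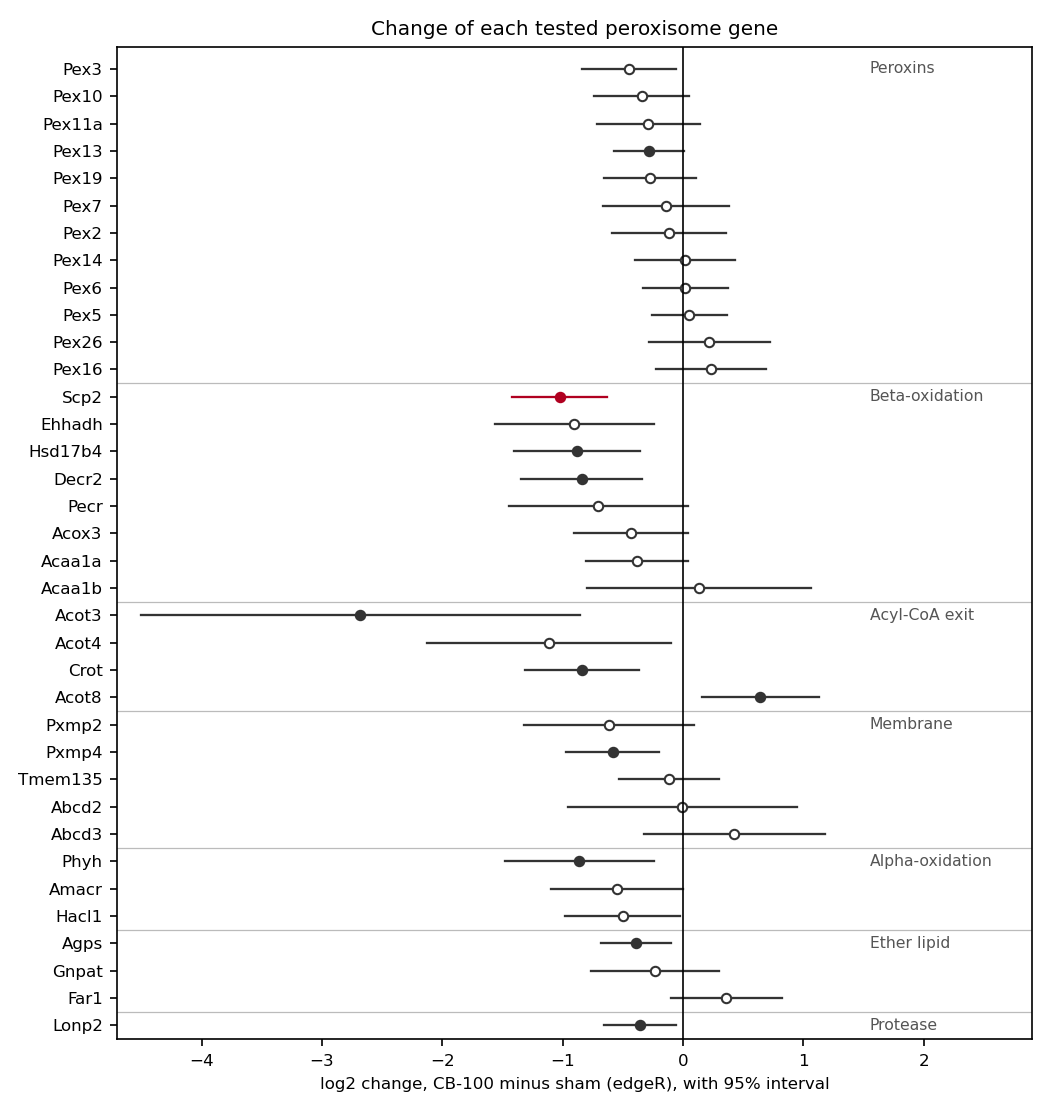
Fitted log2 difference, CB-100 minus sham, of each tested gene with its 95% confidence interval, ordered by role; filled points mark genes whose groups do not overlap and red marks the called gene. Scp2 at -1.02 is the only red point, and the intervals of most peroxins span 0.

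The peroxins divide into import receptors, docking and export factors, and proteins of the membrane. Pex5, the receptor for most matrix proteins, ranged from 93.5 to 109 CPM in CB-100 and from 89.3 to 110 CPM in sham. The interval of its difference, -0.26 to 0.36, includes both a lower and a higher level. Pex7, the receptor for proteins with the second type of targeting signal, stood at -0.14. The docking protein Pex13 had 58.3, 46.3, 50.4 and 50.7 CPM in CB-100 and 59.9, 61.6 and 66.0 CPM in sham. It was the only peroxin whose groups did not overlap (difference -0.28, SE 0.13, adjusted p = 0.220). Its partner Pex14 stood at 0.02. The ubiquitin ligase subunits Pex2 and Pex10 stood at -0.11 and -0.34, and Pex6 and its anchor Pex26, which recycle the receptor, at 0.02 and 0.22.

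Pex3, the membrane anchor on which new peroxisomal membranes are built, had the smallest p of the peroxins. Its level was 30.6, 20.3, 27.7 and 22.0 CPM in CB-100 and 30.0, 36.2 and 36.4 CPM in sham, and CB-100 replicate 1 lay just above sham replicate 1. The difference was -0.45 (SE 0.17, 95% confidence interval -0.84 to -0.06) with an adjusted p of 0.158. Its partner Pex19, the carrier of membrane proteins, stood at -0.28, Pex16 at 0.23 (95% confidence interval -0.22 to 0.69), and Pex11a, which promotes division, at -0.29. The lower quartile of the differences was -0.28 for the 12 peroxins and -0.85 for the 24 enzymes, beside -0.29 over all genes tested. The lists were not tested against each other.

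Counted without a model, every CB-100 library lay below every sham library for 10 of the 36 genes (9 enzymes and Pex13), and above for 1. Over all genes tested these arrangements held for 12.2% and 11.1%. Within groups the mice kept a loose order: CB-100 replicate 1 was highest of its group for 10 of 12 peroxins and 16 of 24 enzymes, CB-100 replicate 4 lowest for 7 and 10, and sham replicate 1 lowest for 8 and 15. The genes' values within a library are thus not independent of each other.

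Summed over the peroxins, the level was 547 ± 70.1 CPM over the CB-100 mice and 592 ± 49.1 CPM over the sham mice (SD, n = 4 and 3), with overlapping groups. The summed enzymes gave 2001, 1527, 1769 and 1433 CPM in CB-100 and 2027, 2622 and 2499 CPM in sham. The groups did not overlap, but CB-100 replicate 1 and sham replicate 1 nearly met, and the mean was lower by 29.4%. Beta-oxidation enzymes accounted for much of this, with 700, 527, 598 and 507 CPM in CB-100 and 907, 1098 and 1057 CPM in sham. Scp2, Phyh and Hsd17b4 together held 41.7% of the enzymes' summed sham level. Without these 3 genes the mean of the summed enzymes was lower by 16.4% in CB-100, and the groups overlapped.

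**Figure D3:**
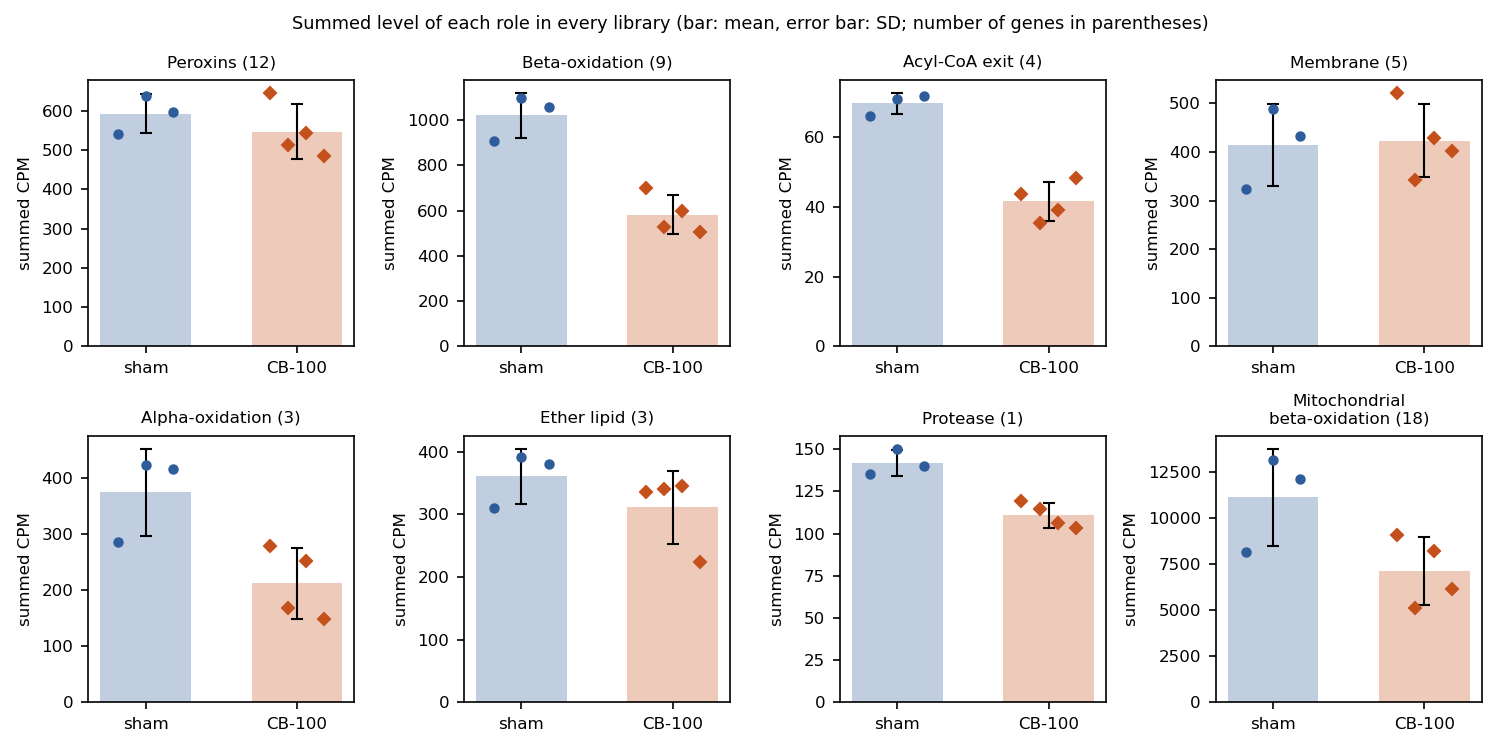
Summed TMM-normalized CPM of each role in each library, with bars for group means from 0, error bars for the SD and points for mice. The beta-oxidation points lie at 507 to 700 CPM in CB-100 and 907 to 1098 CPM in sham, whereas the peroxin points overlap.

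Across all genes the difference varied with the level. Among protein-coding genes at a mean of 1 to 10 CPM per kb the median difference was 0.01 (7926 genes, 1.73% called lower), at 10 to 50 it was -0.09 (2248 genes, 5.16%), and at 50 to 150 it was -0.39 (312 genes, 14.7%). The enzymes in the same bands had medians of -0.50 (9 genes), -0.37 (10 genes) and -0.87 (4 genes: Hsd17b4, Scp2, Phyh and Gnpat). The peroxins had -0.14 (5 genes) and -0.11 (7 genes) in the lower bands and none in the highest. In each band the enzymes' median was thus below that of its protein-coding genes, and Scp2 lay in the band where lower calls were most frequent.

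**Figure D4:**
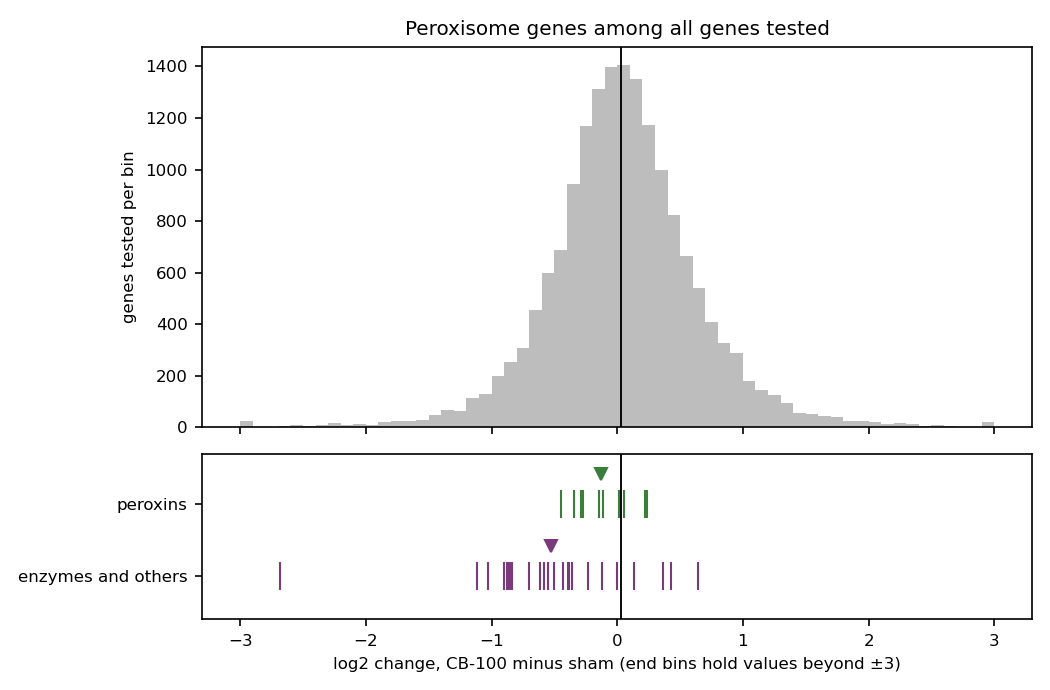
Histogram of the log2 difference of all 16823 genes tested (vertical axis, genes per bin), above ticks for the 12 peroxins and the 24 enzymes; triangles are list medians and the black line is the median of all genes. The median of the enzymes (-0.52) lies left of the line at 0.03, and that of the peroxins (-0.13) lies closer to it.

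Reads of some of these genes may belong to a neighbour or to a similar gene. Of the 36 tested, 18 have an exon that overlaps a gene on the opposite strand, among them Crot, Hacl1, Pex3 and Pex13. Non-whole counts were found for 10, among them Scp2 in all 7 libraries, although its exons overlap no other annotated gene. With neither an overlap nor a non-whole count, 17 genes remain, and the medians were -0.57 for 10 enzymes and -0.14 for 7 peroxins. These values are close to those of the full lists, and Hsd17b4, Decr2, Phyh, Ehhadh, Pxmp4, Agps and Lonp2 are among the 17.

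Other genes of the organelle outside the 37 gave 5 calls of 44 tested (11.4%), all lower, with a median of -0.25. The share called lower was 2.28% over all genes tested. Among protein-coding genes it was 5.16% at 10 to 50 CPM per kb and 14.7% at 50 to 150. Slc27a2, which activates and imports very long chains, had 160 ± 46.7 CPM over the CB-100 mice and 382 ± 44.9 CPM over the sham mice (SD, n = 4 and 3), a difference of -1.26 (SE 0.24, adjusted p = 0.0344). Cat, the catalase that breaks down hydrogen peroxide, had 312 ± 70.4 and 616 ± 78.8 CPM (difference -0.98, SE 0.22, adjusted p = 0.0476). Hsdl2, Gstk1 and Sod1 were the others called, at -1.11, -0.96 and -0.94, and Sod1 is mostly cytosolic. Of this list, 4 genes were called without CB-100 replicate 4, not all of them among the 5 above, and 0 without any other library. Hsdl2 and Cat lost their calls without each of the 7 libraries in turn, with an adjusted p of up to 0.176 and 0.179.

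Mitochondrial beta-oxidation receives the shortened chains. Of all genes tested 2.28% were called lower, and of protein-coding genes at 50 to 150 CPM per kb 14.7%, with a median of -0.39. The mitochondrial list was not limited to that band, with sham means from 2.73 CPM per kb for Cpt1a to 618 for Acaa2. The band is thus not a matched baseline, and genes above 150 CPM per kb were not summarized. The mitochondrial list showed 3 calls of 18 tested genes (16.7%), all lower, and a median of -0.56. They were Etfa and Etfb, which pass on the electrons of the first step, at -1.36 and -1.17 (adjusted p = 0.0331 and 0.0364), and Eci1, an isomerase for unsaturated chains, at -1.26 (adjusted p = 0.0344). Etfa and Etfb lost their calls without any 1 library other than CB-100 replicate 4, and Eci1 without any other than CB-100 replicates 1 and 4, with differences from -1.49 to -1.05. Of 10 tested regulators of these genes, none was called (3 at an unadjusted p under 0.05 in edgeR), and the median was 0.14. Ppara, the receptor that drives many of them, had 237 ± 91.8 CPM over the CB-100 mice and 254 ± 79.0 CPM over the sham mice (SD, n = 4 and 3), a difference of -0.10 (adjusted p = 0.890). The nuclear receptors Esrra and Nr1h3 had the smallest p of the regulators, at 0.63 and 0.60 (adjusted p = 0.115 for each).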

How the data were processed

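Total RNA of brown adipose tissue was sequenced on an Illumina NovaSeq 6000 and aligned with STAR 2.7.9a to Ensembl release 101, per the labels' protocols. Subread featureCounts 2.0.3 and Salmon 1.5.2 are also named, with no role, per the submitters' processing notes. The kit, strandedness and way of counting were not given in the sources used here. Expected counts of each gene in the 7 mice were deposited by the authors, not normalized, with up to 2 decimals; reads of overlapping or similar genes can be shared or misplaced in them.

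Of 55774 lines, 287 repeats were removed. Coordinates, exon lengths and overlaps came from GENCODE M21 (GRCm38), which matched 99.5% of identifiers. Expected counts were rounded, kept by filterByExpr, scaled by TMM (factors 0.755 to 1.25) and tested with edgeR 4.0.16 (robust quasi-likelihood, group alone, two-sided) in R 4.3.3. Benjamini-Hochberg adjustment covered all 16823 genes, and an adjusted p below 0.05 was a call. SE was the log2 difference over the square root of F. The coefficient of variation between mice was 28.0%. Replicate numbers follow sample order; only the titles' codes mark separate mice, so p-values measure the spread between samples, and the number of mice limits precision more than depth. The fit was tested on simulated data before use. It recovered 20% of simulated differences of -1 and 26% of those of 1, and 74% and 80% of those of -2 and 2. Of its 109 calls, 9 were false. A gene that was not called may thus still have changed.

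The members, lists and tests were chosen with earlier results of these data known. Values per library are given for called members, for the 2 others per role with the smallest p and for members whose groups did not overlap. Other lists name up to 4 called genes by size, or the 2 with the smallest p, besides Cat and Ppara. A gene that the rule also gives is not reported here, while counts and medians include it. Sod1, the values of Abcd3 and the choice of sequences go beyond this rule and were chosen after values were seen. Alternatives were other scalings (DESeq2 size factors, upper quartile), low-count filters and tests (DESeq2 1.42.0, limma 3.58.1 voom), leaving out each library, omission of mitochondrially encoded genes, sex or a muscle marker score as covariate and a threshold of 0.1. An analysis of females and one of nuclear protein-coding genes were added after seeing the data.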

Additional observations from a re-analysis of the deposited data

Results flagged for a closer look

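Of 36 tested genes and 2 sums, 3 genes had 1 CB-100 library that stood apart from the other 3 by Dixon's criterion, which by chance marks about 1 group in 20. Pex14 was 59.7 CPM in CB-100 replicate 1, and the next highest value was 40.9 CPM. Pecr was 10.0 CPM in the same library, with 4.93 CPM next. Gnpat was 165 CPM in CB-100 replicate 4, and the next lowest value was 280 CPM.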

How the results depend on the processing

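No peroxin was called under any alternative run (thresholds of 0.05 and 0.1), and the medians of the peroxins, the enzymes and the other peroxisomal genes stayed below 0 under all of them. The enzymes' median ranged from -0.67 to -0.39. The 622 genes called in all became 1968 with DESeq2, 1150 with voom, 238 with sex and 9 with the muscle score as covariate, 0 in females only (2578 at an unadjusted p under 0.05 in edgeR) and 1860 at a threshold of 0.1. Leaving out 1 library gave 8 to 610. The 1 enzyme called became 4 with no filter, 9 with DESeq2, 4 with voom, 2 with sex as covariate and 6 at a threshold of 0.1. It became 0 with the muscle score (10 at an unadjusted p under 0.05 in edgeR) and in females only (9 unadjusted), and 0 to 2 without 1 library (10 to 14 unadjusted where it was 0). The 5 other peroxisomal genes called became 8 with no filter, 12 with DESeq2, 1 with sex, 0 with the muscle score (16 unadjusted), 0 in females only (12 unadjusted), 12 at a threshold of 0.1 and 0 to 4 without 1 library (14 to 20 unadjusted where it was 0). Scp2 was called in 12 of 18 alternatives, and lost its call also with the muscle score (adjusted p = 0.118) and in females only (0.215). Hsd17b4, Decr2 and Crot were called by DESeq2 and with no filter, and Acot3 by DESeq2 and voom. Ppara turned to 0.0860 with voom, 0.14 without CB-100 replicate 4, 0.18 without sham replicate 2 and 0.0818 with the muscle score (-0.28 to 0.18 without 1 library); the cause was not tested. Females-only and left-out fits hold fewer samples. No paired analysis was possible because replicate numbers follow sample order and the titles' codes are not shared between groups.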
